A study of Mus musculus with 4 samples.

Results

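The cells described here are 72 cells that passed a gate for myeloid genes. They come from single-cell RNA profiles of sorted group 3 innate lymphoid cells (ILC3) from mouse small intestine. They were chosen by a gate on measured counts. Only cells with 300 or more detected genes and less than 20% of counts from mitochondrial genes were considered. Such a cell entered if it had a count of Cst3, a count of Cd74, and a count of at least 1 of Ccl22, Lyz2, Csf1r and Cd14. It also had to have no count of Cd3d, Cd3e, Cd3g or Trac. The gate took 27 of 5054 kept cells in replicate 1 and 45 of 4989 in replicate 2, so 72 of 10043 in all. That is 0.534% (Wilson 95% interval 0.367 to 0.776) and 0.902% (0.675 to 1.20) of the kept cells. These shares follow from the gate and are given as a description. The working name was myeloid and dendritic cells with Ccl22 or Lyz2, and it held for only some of the 72.

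Myeloid antigen-presenting cells of the gut wall sample luminal and microbial material and show it to T cells on MHC class II molecules. Conventional dendritic cells take it up in the tissue, mature, gain the chemokine receptor Ccr7 and travel to the draining lymph node, and mature dendritic cells secrete the chemokine Ccl22. Macrophages stay in the tissue, depend on the growth factor receptor Csf1r, and carry lysozyme (Lyz2) and the complement proteins C1qa, C1qb and C1qc. Interleukin-1 beta and interleukin-23 from such cells are known to drive interleukin-22 production by ILC3, and ILC3 return the growth factor Csf2, whose receptor chains are Csf2ra and Csf2rb.

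All samples are of 1 group: ILC3 sorted from the small intestinal lamina propria of C57BL/6 mice aged 6 to 8 weeks, with no treatment or altered gene named. The series title concerns Cxxc1, which binds unmethylated CpG and brings H3K4 methyltransferases to chromatin, in ageing ILC3. There are 2 replicates, each made of 2 libraries from the same pooled cells, 1 for the sample tags and 1 for the transcriptome. The values of replicate 1 are reads per cell and those of replicate 2 are molecules per cell, so levels are compared within a replicate only. Which antibodies the sort used is not stated, and nothing says whether the replicates came from separate animals. The p-values thus cover the spread between these samples alone, and that spread may be technical.

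Before filtering, the cells of the 2 samples numbered 5302 and 5010. The gated cells were deeper than the rest: their median was 15380 reads and 2018 genes against 4732 reads and 1050 genes in the other kept cells of replicate 1, and 4939 molecules and 1744 genes against 2362 and 1222 in replicate 2. A gate that asks for counts of 3 kinds of gene is passed more easily by deep cells. The part of depth per cell in the gene calls below was not tested. The downsampling given in the closing section matched summed counts only. Of the gated cells, 17 and 25 lay above the 95th percentile of counts of their replicate. Doublets of 2 cells with the same tag are not removed by the deposited tag calls. The 2 runs shared 35 cell indices among the kept tags, and 1 gated cell carried such an index.

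Positions are on GRCm38, from the GENCODE annotation: Ccl22 lies on chromosome 8 from 94745590 to 94751699 on the plus strand, Lyz2 on chromosome 10 from 117277331 to 117282321 on the minus strand, and Ccr7 on chromosome 11 from 99144196 to 99155077 on the minus strand.

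The gate was broad, and the name held for only some of its cells. Among the gate genes, Ccl22 was present in 14 and 21 cells, Lyz2 in 14 and 16, Csf1r in 4 and 7, and Cd14 in 7 and 8. A single one of these 4 genes let in 19 of 27 and 40 of 45 cells, and a single count over all 4 let in 4 and 20 cells. Independent myeloid genes were counted next, from a list of 18 genes such as Spi1 (a transcription factor of the myeloid lineage), Tyrobp (a signalling adaptor) and Plek. At least 5 of the 18 were present in 16 of 27 and 24 of 45 cells. The same number of list genes was reached by 52 and 83 of the other kept cells, of which 17 and 15 had a CD3 chain or Trac count.

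The 72 cells were divided into 3 kinds by the gate gene Ccl22 and the C1q genes, which lie outside the gate, after the values had been seen. There were 14 and 21 Ccl22-positive cells, 4 and 3 Ccl22-negative cells with at least 10 counts of C1qa, C1qb and C1qc together, and 9 and 21 cells with neither. Over both replicates that is 35, 7 and 30 cells. The first kind had at least 5 myeloid list genes in 28 of 35 cells, the second in 7 of 7, and the third in 5 of 30. The heat map of single cells shows them side by side.

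**Figure D1:**
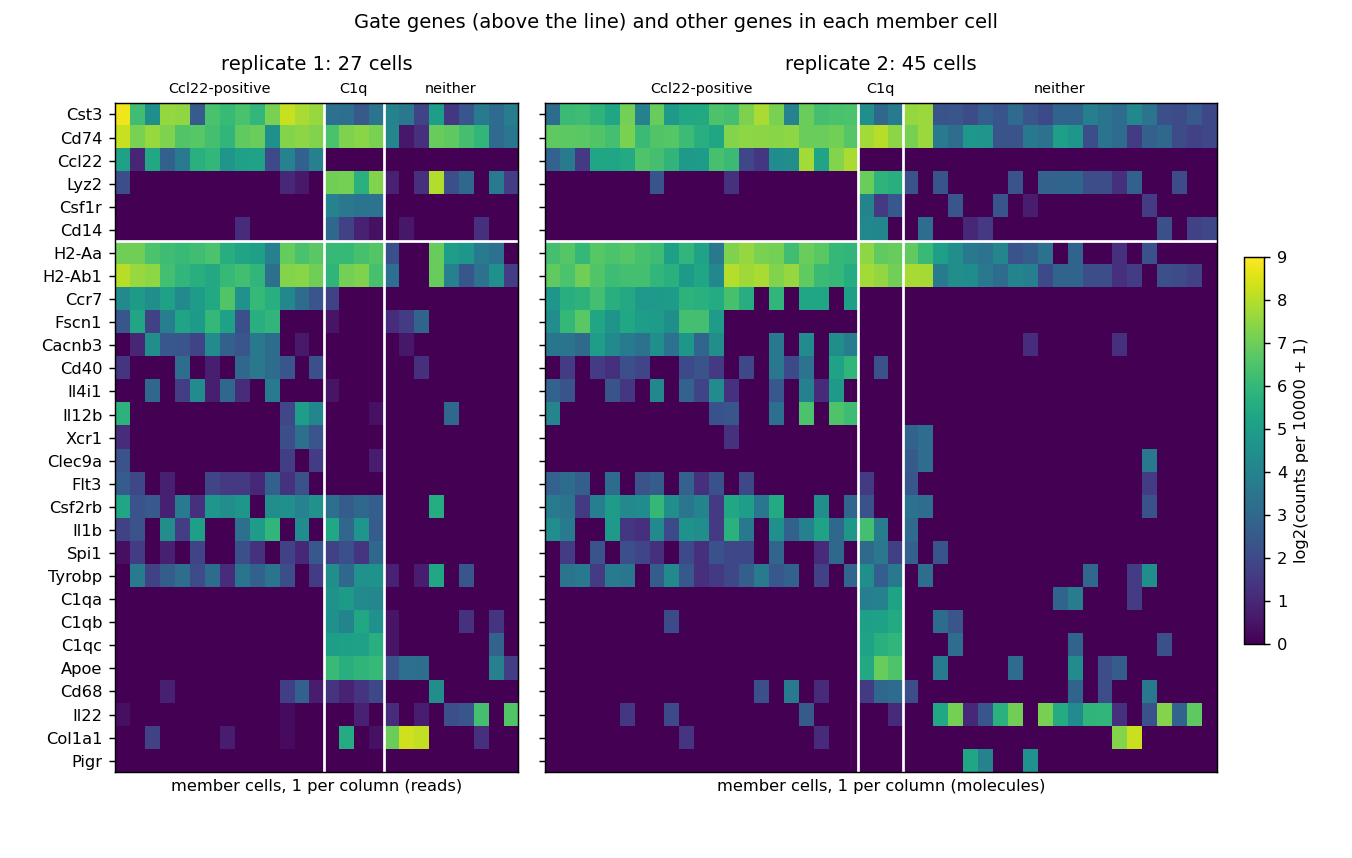
Counts per 10000 (log2 after adding 1) of 29 genes in each of the 27 gated cells of replicate 1 (left) and 45 of replicate 2 (right), 1 column per cell, with the 6 positive gate genes above the white line. Ccl22-positive cells carry H2-Aa, H2-Ab1 and mostly Ccr7, the 4 and 3 C1q-positive cells carry Lyz2, Csf1r and Apoe, and most of the 9 and 21 other cells have Il22 (6 and 16), and some Col1a1 or Pigr.

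The Ccl22-positive cells were rich in class II genes. Counts of the 10 class II genes measured (Cd74 is not among them) made up a median of 227.5 per 10000 in replicate 1, with a lowest cell of 36.9 and a highest of 516.8. In replicate 2 the lowest was 40.2, the median 271.0 and the highest 549.8. H2-Aa, the alpha chain of the class II molecule I-A, was present in 14 of 14 and 21 of 21 cells. In all other kept cells (5027 and 4944), the summed class II counts were 4.83 and 9.62 per 10000.

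Ccr7, the receptor that guides dendritic cells to lymph nodes, was present in 14 of 14 and 18 of 21 Ccl22-positive cells and in 0 of 9 and 0 of 21 of the cells with neither mark. Its level was 29.2 and 43.0 per 10000 in the Ccl22-positive cells, against 0.237 and 0.135 in all other kept cells. Fscn1, the actin-bundling protein of mature dendritic cells, was present in 11 and 12 Ccl22-positive cells, at 17.8 and 30.8 per 10000. Cacnb3, a calcium channel subunit, was present in 11 and 16, Marcks in 14 and 20, Cd40 (the co-stimulatory receptor) in 8 and 14, and Il4i1 (an amino acid oxidase) in 7 and 13. Csf2rb, the shared beta chain of the Csf2 receptor, was present in 13 and 18 cells. Csf1r was not counted in any of these cells, and Csf3r, the receptor of the neutrophil growth factor, was at 0 as well.

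The 19 measured genes of the mature dendritic cell list, which holds neither Ccl22 nor any other gate gene, summed to 159.6 and 221.9 per 10000 in Ccl22-positive cells. In Ccl22-negative gated cells they summed to 31.4 and 19.0. The log2 ratio was 2.35 in replicate 1 and 3.55 in replicate 2. All other kept cells stood at 22.1 and 24.8. With 14 and 13 cells in replicate 1, these classes fell under the minimum of 20 cells set for a test, and the ratio is given as a value.

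Within the Ccl22-positive cells, Fscn1 and Il12b were mostly found in different cells. Il12b encodes the p40 subunit shared by interleukin-12 and interleukin-23. Of the 35 cells, 20 had Fscn1 without Il12b, 8 had Il12b without Fscn1, 3 had both and 4 had neither. The Il12b cells without Fscn1 held 46572, 30909 and 18681 reads in replicate 1 (median of Ccl22-positive cells 15999). In replicate 2 they held 6966, 4514, 2060, 1517 and 1424 molecules (median 5227). The part of depth in the absence of a gene from these cells was not tested. In replicate 1 the 4 Il12b cells were also the 4 cells with Xcr1, the chemokine receptor of type 1 conventional dendritic cells, and each of the 4 had Cadm1 and Wdfy4, other genes of that list. In replicate 2 only 1 of 7 Il12b cells had Xcr1, and none had Cadm1. The joint presence of Il12b and Xcr1 in replicate 1 was thus not seen in most Il12b cells of replicate 2.

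The Fscn1 cells differed from the Il12b cells without Fscn1 in some other genes too. Cd200, an inhibitory surface ligand, was present in 7 of 11 and 8 of 12 Fscn1 cells and in 0 of 3 and 0 of 5 Il12b cells. Socs2, a suppressor of cytokine signalling, was present in 9 of 11 and 10 of 12, against 1 of 3 and 2 of 5. H2-Aa stood at 75.4 and 69.1 per 10000 in the Fscn1 cells and at 105.2 and 127.4 in the Il12b cells. These are counts of few cells of unlike depth and carry no test.

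The 7 C1q-positive cells had another set of genes. Summed C1qa, C1qb and C1qc counts ran from 120 to 279 reads in the 4 cells of replicate 1 and were 43, 55 and 124 molecules in replicate 2. Lyz2 ran from 66 to 480 reads and from 31 to 64 molecules, and Csf1r and Apoe (apolipoprotein E) were present in all 7. Their myeloid list genes numbered 13 to 16 and 12 to 14 of 18, above every Ccl22-positive cell of the same replicate (at most 11 and 10). Their class II level, a median of 282.5 and 425.2 per 10000, lay inside the range of the Ccl22-positive cells in replicate 1, and in replicate 2 its highest cell (554.8) was just above that range. Ccl17, Cacnb3 and Cd200 were not counted in these cells, and Ccr7 was present in 1 of 4 and 0 of 3.

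Some C1q-positive cells carried genes of other lineages. Lyz1, a Paneth cell lysozyme that is nearly identical to Lyz2, was present in 4 of 4 and 1 of 3 of them and in no other gated cell, so reads of the 2 genes may have been split between them and the Lyz1 values are uncertain. The collagen gene Col1a1 reached at least 50 counts in 1 of the 4 cells of replicate 1. Mrc1, the mannose receptor, was present in 1 and 2 cells, Adgre1 (F4/80) in 1 and 3, and Cx3cr1 in 2 and 2. Of the macrophage list genes measured, Cd163 was present in 1 of the 7 cells.

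The 30 cells with neither mark went against the name of the gate. Their median myeloid list count was 2 and 3 genes of 18. Among the 30, 5 cells had at least 50 counts of Col1a1, a collagen of fibroblasts, and 3 had at least 10 of Pigr, the epithelial immunoglobulin transporter. Il22, the interleukin made by ILC3, was present in 6 of 9 and 16 of 21 cells, at 12.0 and 23.9 per 10000, against 0.0782 and 0.276 in the Ccl22-positive cells. All 3 Pigr cells were in replicate 2 and also had Epcam and Tff2, an epithelial secreted factor (Pigr and Tff2 were chosen after their values were seen). Lyz2 counts in these cells were mostly small. Lyz2 was present in 7 of 9 and 11 of 21. The median over all 9 and 21 cells, those without Lyz2 included, was 2.0 and 1.0 counts, and the highest was 48 and 8.

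Lyz2 counts, of any size, were also found outside the gated cells. In the CD3-gated cells, which have a CD3 chain or Trac count, Lyz2 was present in 0.691% of 2894 and 0.557% of 1617. The median depth there was 4582.5 and 2070 counts, against 7049 and 3187 in the 30 cells. Whether the low counts in the 30 cells came from free RNA was not tested.

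A few of the 30 carried antigen-presenting cell genes. In replicate 2, Xcr1 was present in 2 cells and Flt3, the growth factor receptor of dendritic cells, in 2. The 2 replicate 2 cells with the highest class II levels had 448.4 and 368.8 per 10000. In replicate 1 a cell of 1945 reads had 48 Lyz2 reads and 303.3 class II counts per 10000. In replicate 2, 2 cells had 9 myeloid list genes each.

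**Figure D2:**
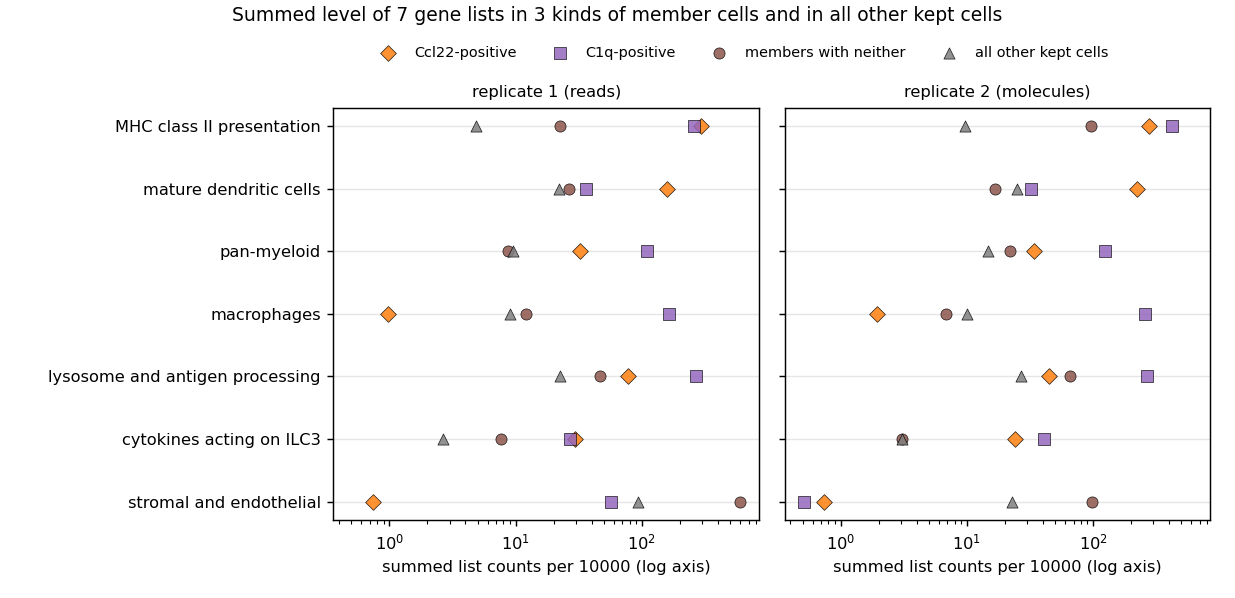
Summed counts per 10000 (log axis) of 7 gene lists in Ccl22-positive cells (14 and 21), C1q-positive cells (4 and 3), gated cells with neither (9 and 21) and all other kept cells (5027 and 4944), 1 point per class and replicate. Class II is high in both marked kinds, and the mature dendritic cell list is highest in the Ccl22-positive points (159.6 and 221.9). The macrophage list is highest in the C1q-positive points (163.6 and 256.2). The split partly fixes this, since that list holds C1qa, C1qb and C1qc. The stromal list is highest in the cells with neither (596.4 and 97.2).

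All 72 gated cells were then compared with all other kept cells across the transcriptome. The cells with neither mark gave 21.3% and 48.0% of the summed counts of the gated cells, and the Ccl22-positive cells 57.5% and 44.1%. The differences below thus mix these kinds. Counts were summed per replicate and class and fitted in edgeR (quasi-likelihood test, replicate as a block, Benjamini-Hochberg adjustment at 0.05), with the gate genes left out. Of 11825 genes tested, 720 (6.09%) were higher and 736 (6.22%) were lower in the gated cells. These shares are the background for every count of list genes called higher or lower below. With DESeq2 the split was 592 higher and 319 lower, and without the replicate block 232 and 76. The median log2 difference over all genes was -0.23. The fit has 1 residual degree of freedom, so its p-values rest on the spread shared across genes. The genes tested come from the cells the gate picked, so the comparison describes the gated cells and is not fully independent of the gate. A gene scarce in the other kept cells could pass the low-count filter through the gated cells alone. The call of any such gene, also within a count of list genes, is a description.

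Few cells carry many of these calls. Of the 720 higher genes, 672 had a count in at least 5 of the 72 gated cells, and 532 in at least 5 cells of each replicate. For 177 of them more than 50% of the counts of 1 replicate came from 1 cell.

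Antigen presentation on class II was higher in the gated cells. Of 10 class II genes tested, 9 were higher (background 6.09%), with a median log2 difference of 4.93 against -0.23 over all genes. H2-Ab1, the beta chain of I-A, stood at 10461 and 7918 CPM in the gated cells and at 166.6 and 323.4 in the others, a log2 difference of 5.29 ± 0.36 (SE, edgeR adjusted p = 2.6e-46). It was present in 25 of 27 and 43 of 45 cells. H2-Aa (4.85 ± 0.35) and H2-Eb1 (5.20 ± 0.35) were higher in both replicates too. Ciita, the master regulator of class II transcription, was higher by a log2 difference of 5.01 ± 0.52 with counts in 6 and 13 cells. H2-DMa and H2-DMb1, which load peptide onto class II, were higher by 3.20 ± 0.36 and 4.61 ± 0.44. H2-Oa did not pass (2.86 ± 1.44, edgeR adjusted p = 0.22).

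Of 12 class I presentation genes tested, 1 was higher, where 6.09% of all genes tested were higher. It was the immunoproteasome subunit Psmb9 (1.21 ± 0.35), a call lost with DESeq2 and without the block. None was lower in edgeR, against 1 at an unadjusted p under 0.05 and 0 in DESeq2. The summed class I level was 173.7 and 161.0 per 10000 in gated cells and 180.2 and 226.3 in the other kept cells.

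Genes that process antigen in lysosomes were higher in 12 of 14 cases, with a median log2 difference of 1.72. Ctss, the cathepsin that trims the invariant chain Cd74, was higher by 2.90 ± 0.32 and was present in 20 and 37 cells. Lgmn, the asparagine endopeptidase, was higher by 3.54 ± 0.39 and was present in 9 and 25 cells. Psap, a precursor of sphingolipid activators, was higher by 2.13 ± 0.31. Ctsd (-0.45 ± 0.50) and Ctsl (0.78 ± 0.34) did not pass. Without the block 4 of the 12 calls were kept. Among the kinds of gated cell, the list summed to 269.7 and 269.0 per 10000 in the C1q-positive cells and to 77.4 and 44.9 in the Ccl22-positive ones.

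Of the 19 mature dendritic cell genes, 16 were higher, 1 (Birc3, an inhibitor of apoptosis) was lower, and Socs2 and Samsn1 did not pass (0.65 ± 0.34 and 0.48 ± 0.29). The list's median log2 difference was 3.46, and 11 of the 16 were kept without the block. Ccr7 stood at 1856 and 1836 CPM against 23.4 and 13.03, a log2 difference of 6.72 ± 0.37 (edgeR adjusted p = 2.9e-69). Fscn1 stood at 1163 and 1317 CPM against 24.2 and 3.99, a difference of 6.89 ± 0.38. The Birc3 difference was -1.10 ± 0.34 and lost its call under 4 of 10 alternatives, among them the gate at 2 counts. For scale, Il4i1 was higher by 7.67 and Tmem123, a surface protein of mature dendritic cells, by 1.23 ± 0.29. Among the 16, Il4i1, Il12b and Nudt17 passed the low-count filter only through the gated cells, so their calls are a description.

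Co-stimulatory and checkpoint ligands were higher in 7 of 11 cases. Cd40 was higher by 7.08 ± 0.49, Cd86 by 5.08 ± 0.38 and Cd80 by 6.16 ± 0.78, with Cd80 counted in 6 and 5 cells only. Cd274, which encodes PD-L1, was higher by 2.75 ± 0.32 and was present in 20 of 27 and 23 of 45 cells. Of these cells 13 and 18 were Ccl22-positive.

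Cytokines that act on ILC3 were higher in 4 of 11 cases: Il1b, Il1a, Il12b and Il6. Il1b stood at 1075 and 948 CPM in the gated cells and at 8.47 and 5.90 in the others, a log2 difference of 7.15 ± 0.38 (edgeR adjusted p = 3.3e-75). It was present in 9 of 14 and 18 of 21 Ccl22-positive cells, in 4 of 4 and 2 of 3 C1q-positive cells, and in 0 of 9 and 1 of 21 of the rest. Il12b had 308 and 59 counts in the gated cells and 0 and 2 in all other kept cells, but 58.1% of the 308 reads came from 1 cell. Il12b and Il1a passed the low-count filter only through the gated cells, so their calls are a description. Il6 stood at 209.5 and 23.6 CPM, a difference of 2.66 ± 0.50, and 60.0% of its reads in replicate 1 came from 1 cell. Tnf (0.75 ± 0.32), Il10 (1.52 ± 0.82), Il15 (0.58 ± 1.52), Il18 and Tgfb1 did not pass. Il23a, the subunit that pairs with Il12b to make interleukin-23, was counted in 2 cells of replicate 1 and 0 cells of replicate 2, so interleukin-23 was not detectable at this depth in replicate 2.

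Chemokines and their receptors divided. Of 15 chemokine genes tested, 7 were higher and 2 lower. Cxcl16 was higher by 5.39 ± 0.36 in 19 and 25 cells, and Ccl17, which shares the receptor Ccr4 with Ccl22, by 5.78 ± 0.61 in 5 and 10 cells, all of them Ccl22-positive. Cxcl9 stood at 1858 and 243.8 CPM in gated cells and 112.5 and 142.7 in the others (2.49 ± 0.35). Ccl5, made by cytotoxic lymphocytes, was lower (-2.21 ± 0.31). Of 10 chemokine receptors 5 were higher (Ccr7, Ccr1, Cx3cr1, Cxcr4 and Xcr1) while Ccr2, Ccr6, Ccr9 and Cxcr3 were lower.

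Of 11 growth factor receptor genes 5 were higher and 2 lower. Csf2rb stood at 1348 and 979.0 CPM against 10.9 and 15.1 (6.49 ± 0.37), and Csf2ra at 668.0 and 346.0 against 29.4 and 21.7 (4.26 ± 0.34). Flt3 was higher by 5.32 ± 0.49, with counts in 10 and 13 cells, 10 and 10 of them Ccl22-positive. Kit, the stem cell factor receptor that ILC3 also carry, was lower (-1.31 ± 0.33), as was Il4ra. Aldh1a2, the retinal dehydrogenase of gut dendritic cells, was higher by 4.13 ± 0.39 and was present in 10 and 12 Ccl22-positive cells.

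Lists of dendritic cell types gave different counts. Of 7 type 1 conventional dendritic cell genes, 4 were higher: Xcr1 (6.37), Clec9a (6.15), Wdfy4 (5.41 ± 0.60) and Cadm1 (5.48 ± 0.57). Xcr1 and Clec9a passed the low-count filter only through the gated cells, so their calls are a description. Cd8a, which T cells also carry, was lower (-3.08 ± 0.65). Xcr1 was present in only 4 and 3 cells, and 86.7% of its 15 molecules in replicate 2 came from 1 cell. That cell had neither mark. The type 1 list summed to 8.61 and 1.01 per 10000 in the Ccl22-positive cells. In the cells with neither mark it summed to 0.211 and 7.02, so the order of the 2 kinds differed between replicates. Of 6 type 2 genes, 0 were higher in edgeR (1 at an unadjusted p under 0.05, 1 in DESeq2) and Cd7 was lower, and Cd209a and Clec10a were each present in 0 cells of replicate 1 and 1 of replicate 2. Irf8 was higher by 3.30 ± 0.32, while Irf4 (0.71 ± 0.58) and Zbtb46 (0.87 ± 0.55) did not pass. Zbtb46 was present in 4 and 15 cells.

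Of 17 genes of the general myeloid list, 13 were higher, with a median log2 difference of 3.97. Spi1 was higher by 5.51 ± 0.43 in 13 and 18 cells, Plek by 4.03 ± 0.33 in 18 and 26, and Tyrobp by 3.15 ± 0.32 in 20 and 24. Fcer1g, a signalling chain that ILC3 and NK cells also use, stood at 271.1 and 519.0 CPM against 473.3 and 768.8 and did not pass (-0.68 ± 0.30). The macrophage list had 10 of 13 genes higher and Maf lower. C1qb was higher by 7.45 ± 0.40, and all but a few of its counts came from the 7 C1q-positive cells. These held 23.1 and 38.4 per 10000, against 0 and 0.0920 in the Ccl22-positive cells. This follows from the split, since C1qb is among the 3 genes that set the C1q-positive kind. Of 8 monocyte genes 3 were higher and Ccr2 was lower, and of 3 neutrophil genes tested 0 passed in edgeR (1 at an unadjusted p under 0.05, 1 in DESeq2). S100a8 and S100a9 were at 0 counts in all gated cells, which allows up to 0.0675 and 0.122 per 10000 (3 counts of the total, counting error only).

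Actin and migration genes were higher in 7 of 12 cases, among them Actb by 2.06 ± 0.31 and Tmsb4x by 1.61 ± 0.31, with counts in 27 of 27 and 45 of 45 cells. The summed list was 896.8 and 752.7 per 10000 in Ccl22-positive cells, 405.8 and 264.4 in C1q-positive cells and 219.3 and 194.7 in all other kept cells. Actb and Tmsb4x lost their calls without the replicate block.

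**Figure D3:**
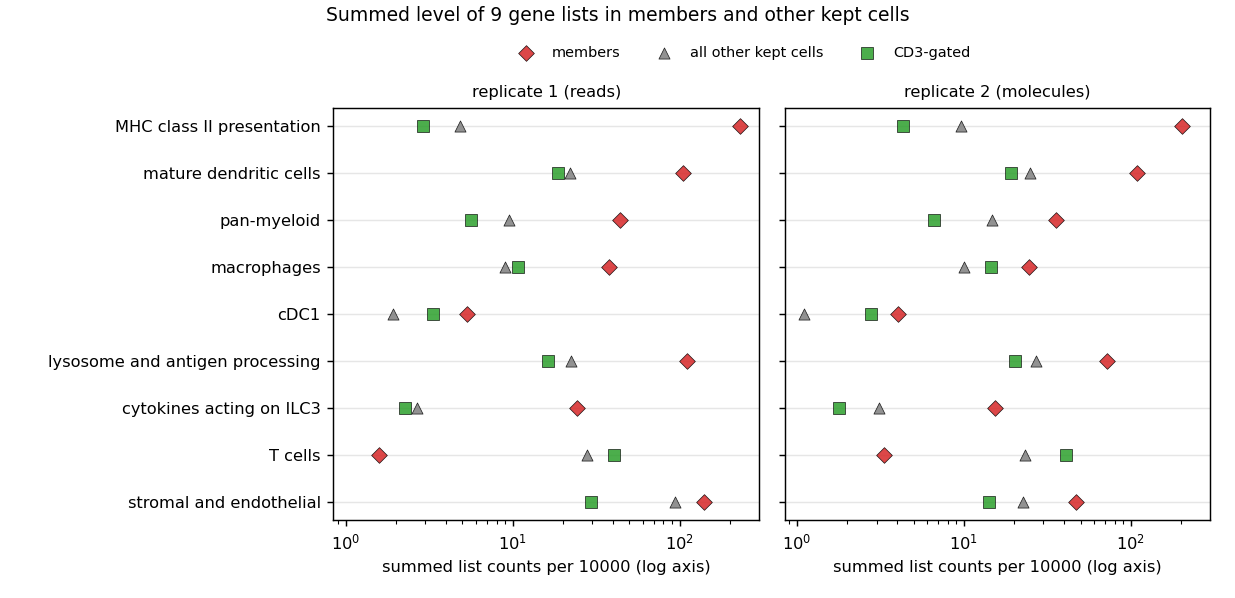
Summed counts per 10000 (log axis) of 9 gene lists in the gated cells (members, 27 and 45), all other kept cells and the CD3-gated cells among them, for replicate 1 (left) and replicate 2 (right). The members lie farthest right for class II (229.6 and 203.0), mature dendritic, myeloid, macrophage and lysosome lists, left of the others for T-cell genes (1.57 and 3.33), and right of both for the stromal list (139.5 and 47.0).

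Several lymphocyte genes were lower. Il7r, the interleukin-7 receptor, differed by -2.66 ± 0.32, Il22 by -2.53 ± 0.31 and Gata3, a transcription factor of innate lymphoid and T cells, by -3.29 ± 0.54. Ahr, the aryl hydrocarbon receptor (0.66 ± 0.40), and Lta (-1.67 ± 0.71) did not pass. Of 12 T-cell genes 11 were lower, which the gate partly fixes because it removes cells with CD3 chain counts. DESeq2 kept 6 of the 11 and the fit without the block 3. Cd28 had 0 counts in the gated cells against 6684 and 892 in the others, a log2 difference of -5.37 or below (3 counts over both replicates as the floor). Ctsw and Ifng were at 0 as well, at -4.66 or below and -4.45 or below. All 3 lost their calls with DESeq2, and Cd28 also without the block, as did Il7r and Il22. Of 10 B and plasma cell genes 3 were lower and 1, Ighm, was higher (1.45 ± 0.52, edgeR adjusted p = 0.044), where 6.09% of all genes tested were higher. The Ighm call was lost under 4 of 10 alternatives, DESeq2 among them. Igkc, the kappa light chain of plasma cells, stood at 184.9 and 204.4 CPM against 3663 and 4988.

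Collagen and epithelial genes were called higher, and these calls followed few cells. Of 10 stromal genes 5 were higher, among them Col1a1 (1.21 ± 0.30), and of 7 epithelial genes 5, among them Epcam (2.65 ± 0.64), Krt8 and Lyz1. Epcam stood at 4.93 CPM against 8.02 in replicate 1 and at 228.0 against 11.2 in replicate 2, so its direction differed between replicates. DESeq2 kept 2 of the 5 epithelial calls and the fit without the block 0, and Epcam lost its call under both and with the gate at 2 counts. Of the 5 stromal calls the fit without the block kept 0. Col1a1 was present in 9 and 4 gated cells, with 43.4% and 56.4% of its counts in 1 cell of each replicate. When the gate asked for 2 counts in place of 1, the Col1a1 difference turned to -1.39. Col1a2, Col3a1, Dcn and Sparc turned too, to -1.26, -1.50, -1.36 and -1.54. Krt8 was present in 0 cells of replicate 1 and 3 of replicate 2. Defa24, a Paneth cell defensin, had 99.6% of its molecules in 1 cell.

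**Figure D4:**
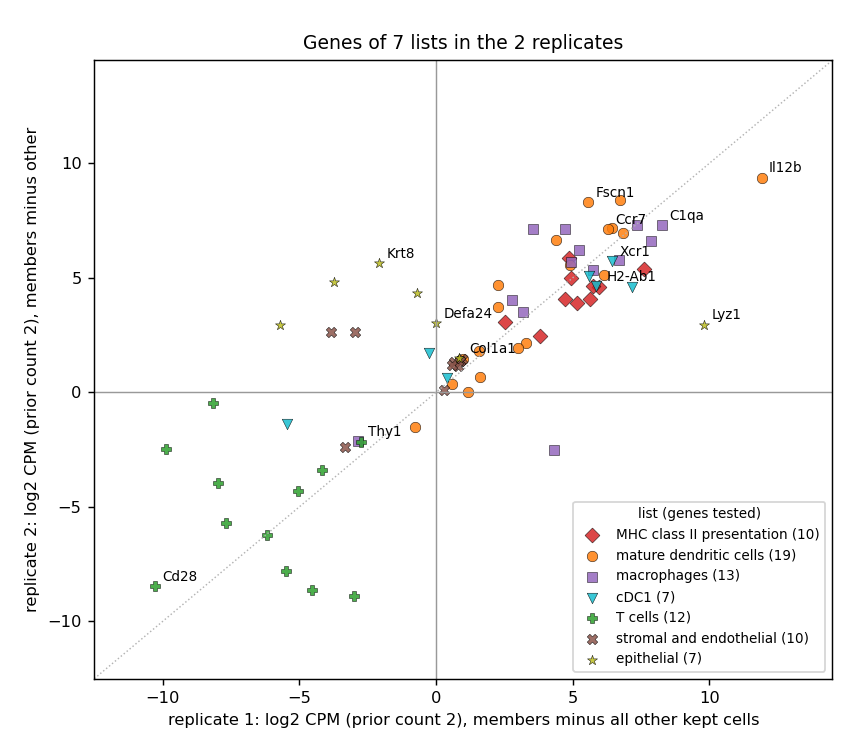
Log2 difference in CPM (prior count 2) between gated cells and all other kept cells in replicate 1 (x axis) and replicate 2 (y axis) for the tested genes of 7 lists, 1 point per gene. Class II genes lie above 0 in both replicates, as do mature dendritic, macrophage and type 1 dendritic genes except Birc3, Maf, Mertk, Tlr3 and Cd8a. T-cell genes lie below 0 in both, and Krt8 and Lyz1 lie far from the diagonal.

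The largest differences under the fixed naming rule were in genes with few counts elsewhere. Mreg, which encodes melanoregulin, had 106 and 47 counts against 10 and 14 in all other kept cells (log2 difference 8.43), in 9 and 12 cells. Slc7a11, the cystine transporter, had 34 and 27 against 6 and 5 (8.29), in 7 and 12 cells. Tspan33 had 84 and 34 against 20 and 7 (8.04), in 15 and 13 cells. Htr7, a serotonin receptor, was present in 8 and 8 cells (8.56). C1qa was present in 4 and 6 (8.06). These genes stood at 1.47 CPM or less in all other kept cells and passed the low-count filter only through the gated cells. Their differences are thus a description, given without error or test. Pla2g2d, a secreted phospholipase, had 219 reads but 2 molecules in the gated cells. Mab21l3, Il1a, Tlr11, Mrc1 and Tbxas1 completed the top 12 and had at most 3 counts in the other kept cells, so no fold is given. Besides Cd28, Ctsw and Ifng, the genes with the largest decrease were Xcl1, Mmp10 and Cd247, also at 0 counts in the gated cells.

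Cxxc1 itself was not called: it stood at 93.7 and 78.6 CPM in the gated cells and 92.0 and 79.9 in the others, a log2 difference of 0.00 ± 0.39. An interval of 1.96 SE around it runs from -0.75 to 0.76. It was counted in 12 of 27 and 12 of 45 gated cells. Of 14 genes of the H3K4 methyltransferase complexes 0 were higher in edgeR (0 at an unadjusted p under 0.05, 0 in DESeq2) and 1, Kmt2a, was lower (-1.06 ± 0.33, edgeR adjusted p = 0.013), where 6.22% of all genes tested were lower. That call was lost with DESeq2 and without the block.

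Cells just outside the gate show where its edges lie. With Cst3 and Cd74 but none of the 4 myeloid genes there were 239 and 789 cells, of which 13 and 46 had at least 5 myeloid list genes and 15 and 25 had Ccr7. With the 3 kinds of gene but a CD3 chain or Trac count there were 5 and 3 cells. All 5 in replicate 1 had at least 5 myeloid list genes, their median class II level was 325.9 per 10000, and 3 had Ccl22. Of the 3 in replicate 2, 0 had at least 5 myeloid list genes, the median class II level was 11.5 per 10000, and 1 had Ccl22. Cells lacking only Cst3 numbered 7 and 12, and 2 of the 7 had at least 10 C1q counts. Inside the gate, the 4 and 20 cells with a single count over the 4 genes had a median class II level of 19.6 and 16.1 per 10000, against 196.7 and 253.6 in the 23 and 25 cells with more.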

How the data were processed

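Single cells were profiled on the BD Rhapsody platform. The authors deposited raw counts, whole numbers for each cell and gene: reads in replicate 1 and molecules in replicate 2. The submitters' processing notes name the BD WTA Multiplex Rhapsody Analysis Pipeline (1.8 and 1.9.1), HISAT2 2.0.5 and Bowtie2. The tag calls are the authors' deposited ones, which had set aside 815 and 1997 multiplets. For replicate 1 the sample labels name tag 4, which no cell carried, and the cells of tag 8 were used.

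Cells with at least 300 genes and under 20% mitochondrial counts were kept. Kept cells of replicate 1 held 26854688 counts outside the gate and 444763 inside, and those of replicate 2 held 12610642 and 246388. The 2 runs shared 19380 genes. Counts were summed per class and replicate and tested with edgeR 4.0.16 in R 4.3.3 (TMM, quasi-likelihood, replicate as a block since the 2 replicates are in different units). Genes with low counts (filterByExpr, minimum 10, total 15) and the gate genes were left out before adjustment. The minimum of 10 is scaled to library size, so fewer counts suffice in the small summed libraries of the gated cells. CPM use TMM-scaled library sizes, and list levels are sums per 10000 counts. Classes under 20 cells in a replicate were given as values. Intervals and floors (3 counts) cover counting error only, and reads are not independent molecules.

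On simulated counts, 54% of 200 genes changed 4-fold were recovered for gated against other kept cells. Alternatives were DESeq2 1.42.0, its size factors in edgeR, no filter, no block, stricter gates and cell filters, and removal of the highest 5% of Scrublet scores. In another, the summed counts of the other kept cells were downsampled to the summed counts of the gated cells. That leaves the depth per cell unmatched. Scrublet itself called only 2 and 30 kept cells, so its calls were not used. The named genes are those of 35 lists plus the 12 called genes with the largest increase and the 6 with the largest decrease, with the same sign in both replicates. The members and lists were chosen with earlier results of these data known. Some planned comparisons are not reported here.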

Additional observations from a re-analysis of the deposited data

How the results depend on the processing

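The share of kept cells in the gate, a mean of 0.718% over the replicates, became 0.448% with 2 counts in place of 1, 0.129% with at least 2 of the 4 myeloid genes and 0.315% without cells above the 95th percentile of counts. It ranged from 0.534 to 0.902 when each replicate was left out. The mature dendritic cell ratio of Ccl22-positive to Ccl22-negative gated cells (mean 2.95) was 2.07 with at least 2 of the 4 genes, and ranged from 2.35 to 3.55. Against all other kept cells 1456 genes were called. DESeq2 called 911, of which 873 were among the 1456, and edgeR without the replicate block 308, all among them. Of 201 named genes called, the block's removal kept 91, DESeq2 164 and downsampling 166 (32 not tested). With 2 counts in the gate, 185 were kept and 5 reversed: Col1a1 (-1.39), Col1a2 (-1.26), Col3a1 (-1.50), Dcn (-1.36) and Sparc (-1.54). The cause of these changes was not tested. Without a replicate, at least 2 of the 4 genes, or without the deepest cells, the gene-wise fits were not run, since no residual degree of freedom or under 20 gated cells remained.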
